A study of Mus musculus with 15 samples.

Results

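The cytosolic ribosomal protein genes were taken from the deposited count table by symbol: names made of Rpl or Rps with a number and an optional letter a, l or x, together with the stalk genes Rplp0 to Rplp2 and Rpsa. The rule found 81 of 24421 listed genes, 49 named for the large subunit and 32 for the small subunit. RNA had been sequenced from primary kidney proximal tubule cells of C57BL/6 mice, passaged 1 time in culture, from males and females that were either WT (Diet1+/+) or KO (Diet1-/-). Diet1 is a gene known for its part in the control of bile acid levels. The targeted gene itself was not analysed here, and the KO labels were therefore taken as given. Each group was 1 pool of cells from 3 to 4 mice, divided into 4 technical replicates, and 15 libraries were analysed: 4 male WT, 3 male KO, 4 female WT and 4 female KO. Total counts ran from 17648416 to 30896637 per library. Because the libraries of a group share a pool, each p-value below measures the spread between libraries of a pool and not the spread between mice.

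A ribosome joins a small subunit, which holds the mRNA and reads its codons, to a large subunit, which forms the peptide bond. Each subunit is built of ribosomal RNA and proteins that are mostly present in a single copy, and the cytosolic ribosomal protein genes are accordingly transcribed at high and similar levels in growing cells. Most of their mRNAs begin with a C followed by a run of pyrimidines, the 5′ terminal oligopyrimidine (TOP) motif, through which mTORC1, LARP1 and other factors adjust their translation to nutrient supply and growth. The kidney proximal tubule reabsorbs most of the filtered solutes, and its cells re-enter the cell cycle when placed in culture.

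All 81 genes had 1 position in the mouse annotation used (GENCODE M21, GRCm38), and they lay on 19 chromosomes. Their annotated mRNAs had a median length of 681 bases. Ribosomal protein genes have many processed pseudogenes, and a median of 57.4% of the 50-base windows of a member's mRNA also occurred, letter for letter, in transcripts of other annotated genes. The share was at least 50% in 51 members and 0 in 3 of them. How the authors' counting treated reads that match several places is not given in the sources used here, so the level of a member with many shared windows is uncertain. Exons of 13 members overlapped exons of another gene. Rps4l was the 1 member whose transcript is annotated as a processed transcript rather than as protein coding.

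The TOP motif was looked for around the annotated transcription starts, in RefSeq promoter sequences (GRCm38.p6), where 60 members were found. A C followed by 4 pyrimidines stood exactly at an annotated first base in 13 of the 60 members (21.7%), against 471 of 17164 other genes of the count table (2.74%). With the run allowed to begin within 5 bases of the annotated first base, it was found in 28 members (46.7%) and in 3708 other genes (21.6%). A match is a property of the annotated start and was not read as a functional site, and no match says only that no such run begins within these bases. Shown here are 30-base windows, each with 10 bases before the annotated first base and 20 from it onward, on the gene's strand, 5′ to 3′. The capitals mark a C and its pyrimidine run at the annotated first base. Rplp2 (chr7:141447641-141447670, plus strand) and Rps6 (chr4:86857348-86857377, minus strand) are shown because their KO effects are described below and they have the run at the first base. Rps27 (chr3:90213629-90213658, minus strand) also has it, although few counts were assigned to the gene. Rps12 (chr10:23787190-23787219, minus strand) and Rpsa (chr9:120127756-120127785, plus strand) are shown because they were among the largest rises in KO, and Rplp0 (chr5:115559457-115559486, plus strand) because it is the base of the stalk described below. In these 3 no such run begins within 5 bases of the annotated first base, and pyrimidine runs farther from it are left in lower case.
Rplp2: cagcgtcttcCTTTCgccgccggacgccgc
Rps6: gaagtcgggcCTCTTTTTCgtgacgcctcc
Rps27: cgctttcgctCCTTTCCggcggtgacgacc
Rps12: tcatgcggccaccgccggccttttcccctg
Rpsa: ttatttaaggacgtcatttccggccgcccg
Rplp0: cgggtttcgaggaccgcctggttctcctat

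Levels were compared between genes as CPM (counts in 1000000 after TMM scaling), divided by mRNA length in kb. The highest member was Rplp1, an acidic protein of the stalk that recruits elongation factors, at 1166 ± 55.7 CPM per kb in male WT and 1184 ± 22.5 in female WT (SD, n = 4 libraries each). It was the only member above 1000 CPM per kb over the WT libraries. Next came Rplp2, the partner of Rplp1 in the stalk, at 785 CPM per kb over both WT groups, then Rps2, a protein near the mRNA entry site, at 743, Rplp0, the base of the stalk, at 740, and Rpl32 at 715. Rplp0 and Rpl32 did not differ beyond their spread in male WT, at 740 ± 28.4 and 712 ± 44.7 CPM per kb. Rps2, at 782 ± 39.3 in male WT and 703 ± 18.7 in female WT, was also within the spread of a neighbour in each sex, Rplp0 in males and Rpl32, at 719 ± 17.1, in females. Of all 81 members, 70 were above 100 CPM per kb, 5 tested members lay between 10 and 100, and 2 at or below 10. Among the 5 were Rps20 and Rpl5, whose lengths were taken as 3706 and 2045 bases. Before division by length, Rps20 stood at 281 and 289 CPM in male and female WT, and Rpl5 at 155 and 161. Their low levels per kb depend on the transcript taken for the length. The median over tested members was 306 CPM per kb in male WT, 334 in male KO, 309 in female WT and 343 in female KO. Small subunit members had a median of 334 in male WT and 341 in female WT, and large subunit members 285 and 297.

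**Figure D1:**
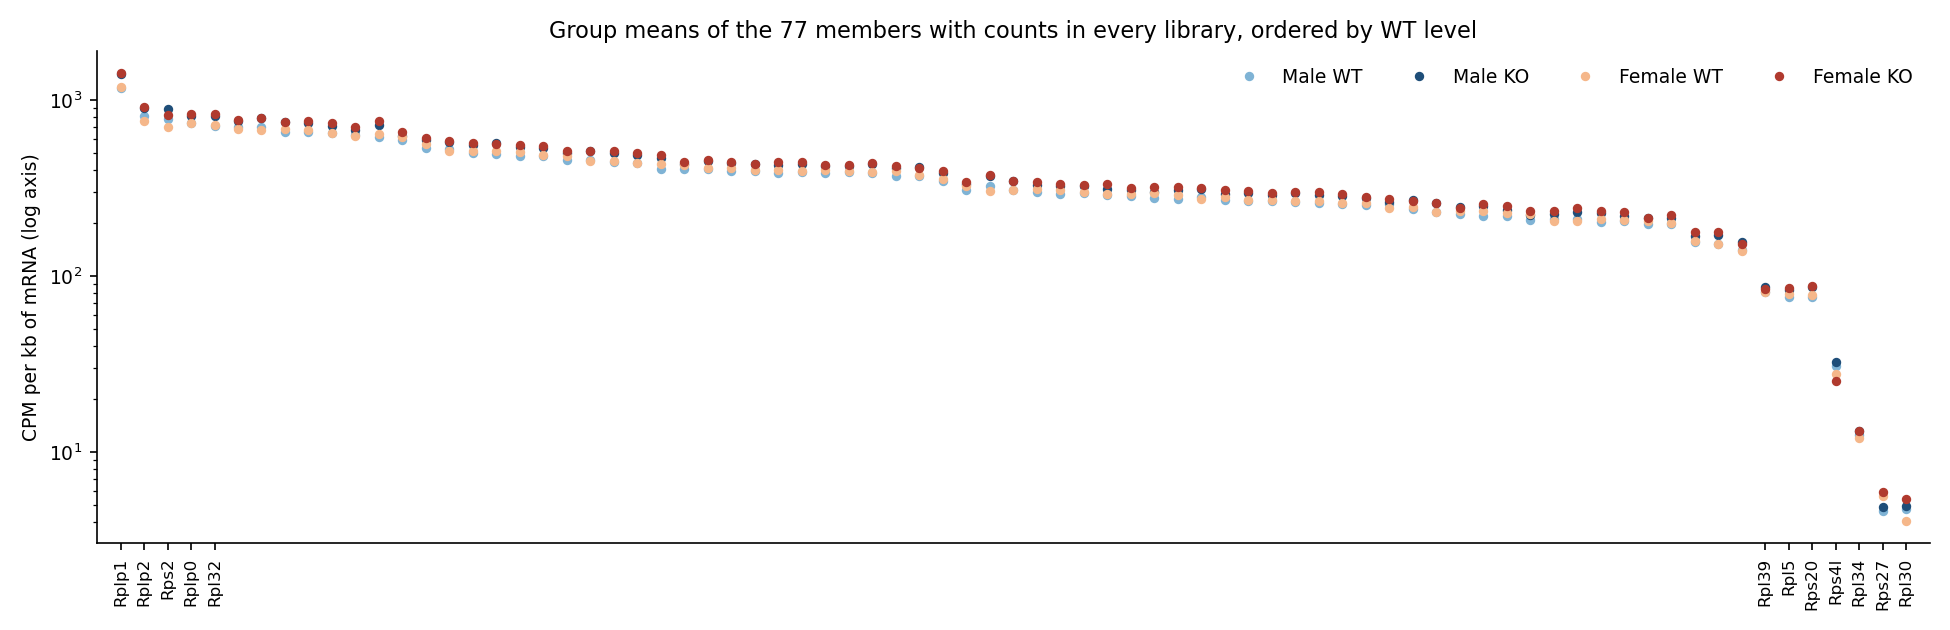
Mean level of each of the 77 members with counts in every library, in CPM per kb of mRNA on a log axis, ordered from the highest to the lowest WT level, with 1 point per group and the names of the first 5 and last 7 genes. The levels fall gradually from Rplp1, at 1175 over the WT groups, to Rpl27, and steeply over the last 7 genes to Rps27 and Rpl30, at 5.15 and 4.41.

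Some genes at the low end encode standard components of the ribosome. Rps27 had 24 to 50 counts per library and 5.15 CPM per kb over the WT groups, with 98.6% of its windows shared with other genes. Rpl30 had 38 to 83 counts and 4.41 CPM per kb, with 76.4% of its windows shared and 34.7% of its exon bases overlapped by a gene on the other strand, D730044K07Rik. Rpl26 had 0 to 3 counts per library, with 71.3% of its windows shared. Across the 77 tested members, which leave out Rpl26, the level per kb in WT and the shared percentage had a Spearman correlation of -0.0114, given as a description across genes that share libraries. It says nothing of a single gene. Rpl10l, Rpl3l and Rpl39l, which are known as copies used in testis or striated muscle, had at most 1 count in any library. A count of 0 allows up to 3 counts, which is 0.0971 to 0.170 CPM depending on the library. These 3 genes and Rpl26 did not pass the filter on low counts, and the other 77 members, 45 large and 32 small, had counts in all 15 libraries and were tested.

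In KO cells the ribosomal protein genes were slightly and broadly higher than in WT cells of the same sex. The 81 genes together took 2.28%, 2.12%, 2.05% and 2.08% of all counts in the male WT libraries and 2.34%, 2.42% and 2.34% in male KO. In female WT they took 2.19%, 2.24%, 2.20% and 2.14%, and in female KO 2.53%, 2.38%, 2.35% and 2.29%. No KO library was as low as any WT library of its sex, although male WT replicate 1 came within a small step of the lowest male KO libraries. The means were 2.13% ± 0.10 (SD, n = 4) against 2.37% ± 0.0437 (n = 3) in males, and 2.19% ± 0.0421 (n = 4) against 2.39% ± 0.104 (n = 4) in females. Counting error is small beside these spreads: the widest 95% Wilson interval, that of female KO replicate 1, ran from 2.527% to 2.542%, and it covers counting error only. The balance of the subunits changed little. Counts of large members over counts of small members were 1.52 ± 0.00337 in male WT, 1.52 ± 0.00716 in male KO, 1.54 ± 0.00480 in female WT and 1.53 ± 0.0119 in female KO. In bulk samples a change in the number of cells of a type and a change in RNA per cell cannot be told apart.

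**Figure D2:**
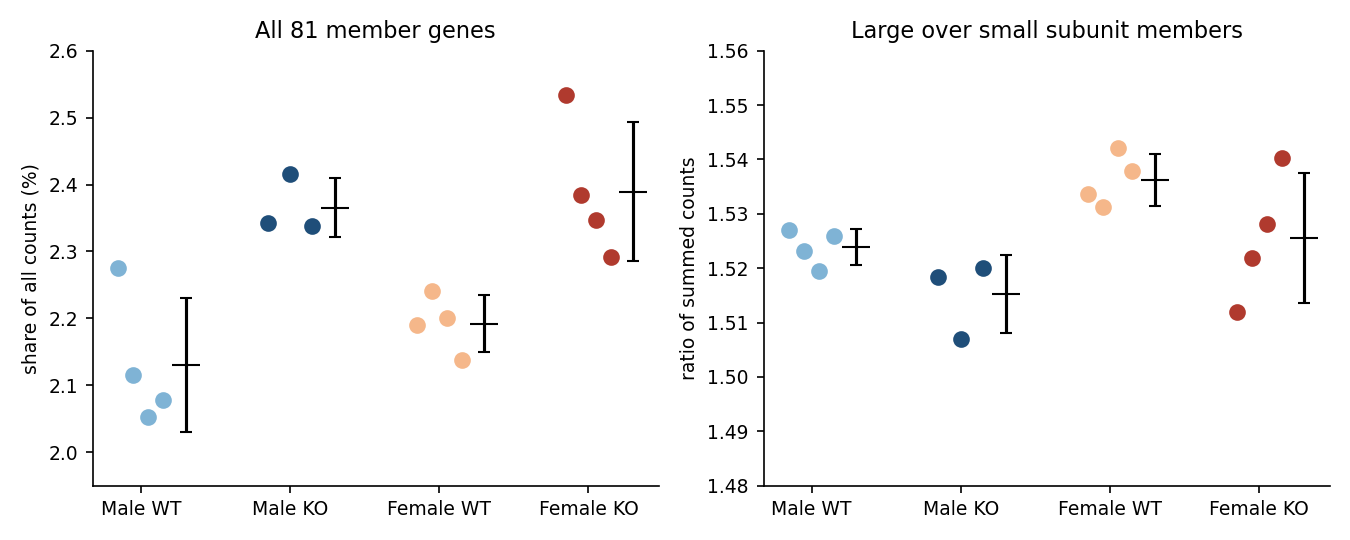
Left, share of all counts assigned to the 81 genes in each library (%), and right, ratio of summed counts of large over small subunit members, with 1 point per library and bars for the group mean ± SD beside the points; neither axis starts at 0. KO libraries lie at 2.29% or more and WT libraries at 2.28% or less, while the ratio stays between 1.51 and 1.54.

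Gene by gene, in males 57 of the 77 tested members were called higher in KO and 0 lower, at an adjusted p under 0.05 in edgeR's quasi-likelihood test over all 13912 tested genes. Over all tested genes 10.1% were called higher and 10.1% lower. All 77 estimates were above 0, with a median log2 fold change of 0.15 (10.7%) and a range of 0.04 to 0.25, where the median of all tested genes was 0.00. In 46 members the KO libraries lay wholly above the WT libraries (13.9% of all tested genes), and in 0 wholly below. In females 64 members were called higher and 0 lower, where 20.7% of all tested genes were called higher and 18.6% lower. The median was again 0.15 (11.0%), the range -0.14 to 0.40, and 76 estimates were above 0. KO lay wholly above WT in 57 members (19.4% of all tested genes) and wholly below in 1, Rps4l (16.7%). No member reached a 1.5-fold change in either sex. Without male WT replicate 1, the library with the highest ribosomal protein levels of its group, the male count was 70. Without female KO replicate 1, the highest of its group, the female count was 53.

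Large and small subunit genes had similar medians. Of 45 large subunit members, 32 were called higher in male KO (median log2 fold change 0.14) and 39 in female KO (0.15). All 45 estimates were above 0 in both sexes. Of 32 small subunit members, 25 were called higher in male KO (0.15) and 25 in female KO (0.15). Their estimates were above 0 in 32 members in males and 31 in females. The shares of all tested genes called higher were 10.1% in males and 20.7% in females. The same 53 members were called in both sexes, while 1027 of all tested genes (7.38%) were called higher in both. Across the 77 members, which share their libraries within each sex, the male and female log2 fold changes had a Pearson correlation of 0.384 and a Spearman correlation of 0.456. 

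**Figure D3:**
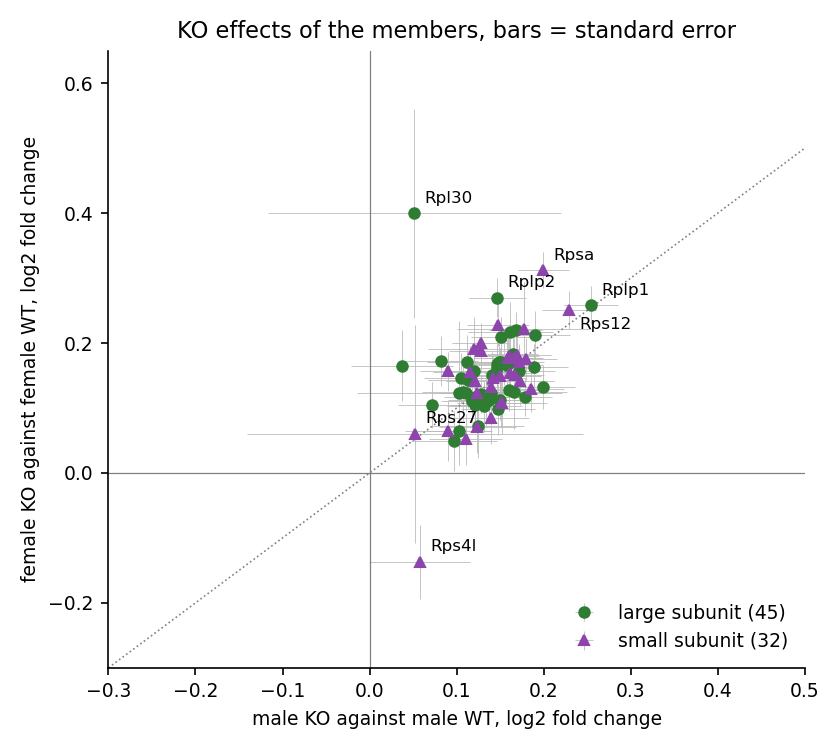
Log2 fold change of KO against WT in males (x) and in females (y) for the 77 tested members, with bars for the standard error; circles are large subunit genes, triangles small subunit genes, and the dotted line marks equal effects. Apart from Rps4l, at 0.06 in males and -0.14 in females, all members lie above 0 on both axes, and Rpl30 and Rps27, with few counts, have the widest bars.

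The 3 stalk genes all rose in both sexes, with no overlap between KO and WT libraries. Rplp1 stood at 623, 564, 574 and 566 CPM in the male WT libraries and 679, 707 and 697 in male KO (log2 fold change 0.25 ± 0.03 SE, adjusted p = 1.21e-07). In females it stood at 588, 607, 583 and 585 CPM in WT and 732, 720.1, 694 and 682 in KO (log2 fold change 0.26 ± 0.03 SE, adjusted p = 5.95e-09). Every KO library was above every WT library of its sex, and in males this was the largest rise of any member. Rplp2 measured 365, 333, 339 and 333 CPM in male WT and 380.0, 384 and 374 in male KO (log2 fold change 0.15 ± 0.03 SE, adjusted p = 9.86e-04). Its female values were 318, 322, 324 and 312 in WT and 399.6, 398, 372 and 369 in KO (log2 fold change 0.27 ± 0.03 SE, adjusted p = 6.49e-09). The male KO libraries sat just above the highest male WT library, replicate 1, whereas the gap in females was wider than the range within either female group. Rplp0, at 1059.8, 995, 969.8 and 994 CPM in male WT and 1074, 1123 and 1078 in male KO, rose by 8.65% (log2 fold change 0.12 ± 0.03 SE, adjusted p = 0.00308). Female Rplp0 values were 1002, 1025, 1013 and 983 in WT and 1176, 1125, 1103 and 1083 in KO, a rise of 11.5% (log2 fold change 0.16 ± 0.03 SE, adjusted p = 1.95e-05). All 3 rises were called in both sexes in each of 24 alternative settings.

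Among small subunit genes, Rpsa and Rps12 rose most in both sexes. Rpsa encodes a protein of the small subunit that is also known as a laminin receptor precursor. Its male values were 545, 490.5, 508 and 514 CPM in WT and 586, 599 and 588 in KO (log2 fold change 0.20 ± 0.03 SE, adjusted p = 3.53e-06). In females they were 483, 494, 490.1 and 472 CPM in WT and 611, 612, 601 and 583 in KO (log2 fold change 0.31 ± 0.03 SE, adjusted p = 2.61e-11). The lowest KO library exceeded the highest WT library by more than the range within either female group. Rps12, a protein of the small subunit head, measured 318, 294, 302 and 301 CPM in male WT and 346, 360.0 and 362 in male KO (log2 fold change 0.23 ± 0.03 SE, adjusted p = 7.48e-07). In females Rps12 measured 305, 327, 319.8 and 306 in WT and 387, 373, 369.5 and 367 in KO (log2 fold change 0.25 ± 0.03 SE, adjusted p = 9.97e-09). The 2 sexes showed rises of 17.2% and 19.0%. Rps6, the small subunit protein phosphorylated by kinases downstream of mTORC1, was at 179, 192, 176 and 176 CPM in female WT and 225, 212, 206 and 204 in female KO (log2 fold change 0.23 ± 0.03 SE, adjusted p = 7.67e-07). Its male values, 191, 181, 180.1 and 183 in WT and 197, 209 and 205 in KO, were also separated (log2 fold change 0.15 ± 0.04 SE, adjusted p = 0.0022). Rps2, the most abundant small subunit member, varied more between libraries. It stood at 839, 768, 755 and 761 CPM in male WT and 904, 932 and 814 in male KO, which overlap, and missed the threshold (log2 fold change 0.18 ± 0.08 SE, adjusted p = 0.14). In females it was called, at 695, 727, 700.5 and 683 in WT and 915, 875, 753 and 731 in KO (log2 fold change 0.22 ± 0.07 SE, adjusted p = 0.0283), and this call was lost in 7 of 24 alternative settings.

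Among large subunit genes outside the stalk, Rpl36, Rpl32 and Rpl17 had the largest male rises. Rpl36 was at 202, 188, 181 and 184 CPM in male WT and 213, 227 and 210.3 in male KO (log2 fold change 0.20 ± 0.04 SE, adjusted p = 9.17e-05), and the female rise was 9.58% (log2 fold change 0.13 ± 0.03 SE, adjusted p = 0.00204). Rpl32 measured 402, 364, 353 and 353 CPM in male WT and 411, 425 and 424 in male KO (log2 fold change 0.19 ± 0.04 SE, adjusted p = 0.00125). In females Rpl32 measured 374, 380.2, 373 and 359 in WT and 458, 430.3, 429.7 and 404 in KO (log2 fold change 0.21 ± 0.04 SE, adjusted p = 7.04e-05). Rpl17, a protein lining the tunnel of the growing peptide, was at 335, 319.9, 295 and 313 CPM in male WT and 356, 370.2 and 354 in male KO (log2 fold change 0.19 ± 0.04 SE, adjusted p = 7.51e-04), with a female rise of 11.9% (log2 fold change 0.16 ± 0.04 SE, adjusted p = 7.55e-04). In each of the 3 genes KO and WT libraries did not overlap in either sex, and male WT replicate 1 was the highest of the male WT libraries. Rpl30 had the largest female estimate of all members but rested on few counts. Its values were 2.58, 2.34, 1.90 and 2.46 CPM in female WT and 3.08, 2.85, 3.79 and 2.56 in female KO (log2 fold change 0.40 ± 0.16 SE, adjusted p = 0.0463). The groups overlapped, and the call was lost in 14 of 24 alternative settings.

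The members that were not called in both sexes were spread over both subunits and most had the same sign. In males only, 4 were called: Rpl22, Rps14, Rps18 and Rps28. In females only, 11 were called: Rpl13a, Rpl14, Rpl30, Rpl31, Rpl35a, Rpl36a, Rpl37, Rpl41, Rps2, Rps23 and Rps27a. A call in 1 sex and not in the other does not show a difference between the sexes. In neither sex, 9 were called, among them Rpl13, Rpl34, Rpl38, Rpl39, Rps21, Rps27, Rps27l and Rps4l. Of these, Rps27 and Rpl34 had few counts, at most 50 and 179 per library. Rpl13, singled out after its values were seen, had a male estimate above the median with a wide error (log2 fold change 0.17 ± 0.06 SE, adjusted p = 0.0683). Rps4l was the 1 member with an estimate below 0 in a KO comparison. It measured 26.1, 25.1, 26.3 and 27.6 CPM in female WT and 25.0, 24.6, 22.7 and 23.6 in female KO, with no overlap (log2 fold change -0.14 ± 0.06 SE, adjusted p = 0.0551). In males it measured 31.5, 30.5, 27.4 and 27.1 in WT and 31.2, 30.8 and 29.2 in KO, which overlap (log2 fold change 0.06 ± 0.06 SE, adjusted p = 0.553). The female fall was called in 12 of 24 alternative settings, with adjusted p from 0.0143 to 0.171. Only 14.9% of its windows were shared with other transcripts.

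In the main fit, no member was called for a difference in KO effect between the sexes, and Rpsa and Rplp2 came near the threshold. Tested as the female effect minus the male effect, 0 of 77 members were called in edgeR, where 9.76% of all tested genes were called higher and 5.89% lower. DESeq2 and limma-voom also called 0, and 3 members had an unadjusted p under 0.05: Rpsa, Rplp2 and Rps4l. The median difference was 0.01. Rpsa had the smallest p, with a larger female rise (log2 fold change 0.11 ± 0.04 SE, adjusted p = 0.0538), followed by Rplp2 (log2 fold change 0.12 ± 0.04 SE, adjusted p = 0.0576). For Rps4l the difference had the opposite sign (log2 fold change -0.19 ± 0.08 SE, adjusted p = 0.108). These 3 were called in some alternatives. Rpsa was called without male WT replicate 2 (adjusted p = 0.0237), male WT replicate 3 (adjusted p = 0.0496) or female KO replicate 4 (adjusted p = 0.0351). Rplp2 was called without female KO replicate 3 (adjusted p = 0.0431) or replicate 4 (adjusted p = 0.0325). Rps4l was called without male WT replicate 1 (adjusted p = 0.0295) and with library size as the only scaling (adjusted p = 0.0467). A replicate block put Rplp2 (adjusted p = 0.00867), Rpsa (adjusted p = 0.0161) and Rpl31 (adjusted p = 0.0482) under the threshold. No call was read from that fit. In the main fit, next in order of p were Rps6 (log2 fold change 0.08 ± 0.05 SE, adjusted p = 0.299), Rps24 (log2 fold change 0.07 ± 0.04 SE, adjusted p = 0.312) and Rpl31 (log2 fold change 0.13 ± 0.08 SE, adjusted p = 0.339). Rps24 rose in both sexes, by 9.26% in males and 14.9% in females. Rpl31 stood at 119, 123, 120.5 and 110.2 CPM in female WT and 144, 135, 125 and 126 in female KO (log2 fold change 0.17 ± 0.05 SE, adjusted p = 0.0231), a call lost in 5 of 24 alternative settings, while male libraries overlapped at 134, 127, 112 and 122 in WT and 125, 134 and 124 in KO (log2 fold change 0.04 ± 0.06 SE, adjusted p = 0.726).

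Few members were called between the WT cells of the 2 sexes. Between female WT and male WT, 3 members were called higher in females and 3 lower, where 12.6% of all tested genes were called higher and 16.0% lower. The median log2 difference was 0.03. The higher genes included Rpl10a (log2 fold change 0.10 ± 0.03 SE, adjusted p = 0.00344) and Rpl23 (log2 fold change 0.09 ± 0.03 SE, adjusted p = 0.0296), both of the large subunit. The lower genes were Rplp2 (log2 fold change -0.10 ± 0.03 SE, adjusted p = 0.00955), Rpsa (log2 fold change -0.09 ± 0.03 SE, adjusted p = 0.0153) and Rps4l (log2 fold change -0.15 ± 0.05 SE, adjusted p = 0.0382). The call of Rps4l was lost in 11 of 24 alternative settings and that of Rpsa in 3. Rpl10a and Rpl23 were named after their values were seen. Of these 6, the female and male WT libraries did not overlap for Rpl10a and Rplp2. The count rested on male WT replicate 1: without it, 22 members were called higher in female WT and 0 lower. None of the 4 X-linked members, Rpl10, Rpl36a, Rpl39 and Rps4x, was called between the WT groups, and their median log2 difference was 0.02. In KO against WT, 2 of these 4 were called higher in males and 3 in females, and all 4 estimates were above 0 in both sexes. Among all tested genes 10.1% and 20.7% were called higher. 

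Within a pool the members rose and fell together from library to library. Male WT replicate 1 was above its group's mean in 73 of 77 members, and replicates 2, 3 and 4 in 23, 2 and 9. Female KO replicate 1 was above its group's mean in 77 members, and replicates 2, 3 and 4 in 45, 9 and 1. In the other groups the counts were 17, 69 and 24 in male KO and 36, 68, 44 and 4 in female WT. Over all tested genes, 47.4% to 51.6% were above their group's mean in each library. Relative to the WT mean of the same sex, the median member stood at a log2 ratio of 0.0985 in male WT replicate 1, and at 0.127, 0.178 and 0.133 in the male KO libraries. In female KO it stood at 0.232, 0.155, 0.124 and 0.0925. Male WT replicate 1 had the most counts of all libraries and female KO replicate 1 the fewest; the part of depth in this pattern was not tested. The median coefficient of variation between libraries of a group was 5.23% in male WT, 2.30% in male KO, 2.56% in female WT and 4.39% in female KO.

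**Figure D4:**
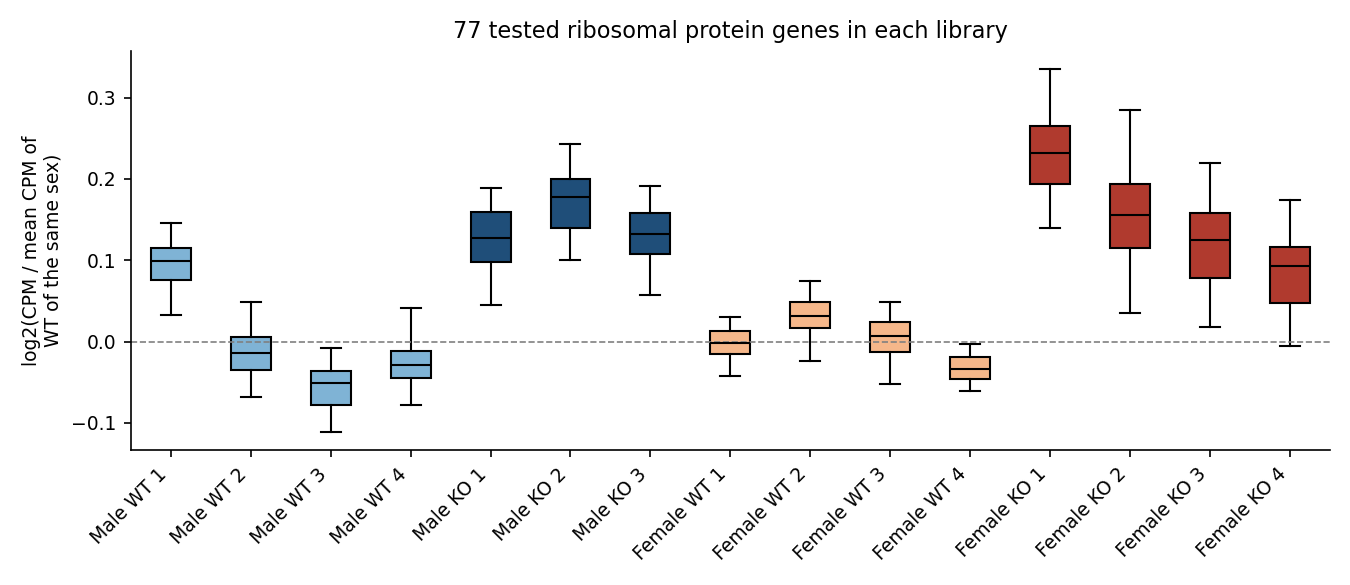
Log2 ratio of each tested member's CPM to its mean in WT of the same sex, by library; boxes span the middle 50% of the 77 members, the line is the median and whiskers run from the 5th to the 95th percentile. Medians of KO libraries run from 0.0925 to 0.232, and among WT libraries male WT replicate 1 stands apart at 0.0985.

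Paralogs gave the widest contrasts in level. Rps27l, a copy of Rps27 known as a p53 target, was at 197 CPM per kb in male WT and 206 in female WT, which is 42.4 and 36.4 times the level of Rps27. Since 98.6% of the windows of Rps27 were shared and 22.4% of those of Rps27l, the counted level of Rps27 is the less certain. In KO, Rps27l measured 104, 106 and 109 CPM against 104, 102, 94.7 and 93.1 in male WT, without overlap, and missed the threshold (log2 fold change 0.11 ± 0.04 SE, adjusted p = 0.0606). Its female libraries overlapped (log2 fold change 0.05 ± 0.04 SE, adjusted p = 0.311). Rps4x, the X-linked gene of this pair, was 12.4 times Rps4l per kb in male WT and 14.0 times in female WT, and 13.3 and 17.2 times in male and female KO. It rose by 12.6% in both sexes (log2 fold change 0.17 ± 0.03 SE, adjusted p = 3.47e-05 in males; log2 fold change 0.17 ± 0.03 SE, adjusted p = 3.94e-06 in females). Rpl3, an essential protein near the peptidyl transferase centre, rose by 7.96% in males (log2 fold change 0.11 ± 0.03 SE, adjusted p = 0.0072) and 8.94% in females (log2 fold change 0.12 ± 0.03 SE, adjusted p = 5.62e-04), while its muscle paralog Rpl3l had at most 1 count in any library. Rpl10, which is needed for subunit joining, rose by 8.78% in males (log2 fold change 0.12 ± 0.04 SE, adjusted p = 0.0163) and 8.43% in females (log2 fold change 0.12 ± 0.03 SE, adjusted p = 0.00652), and Rpl10l had 0 counts. Rpl39, a small protein lining the peptide tunnel, was at 51.5, 47.8, 47.7 and 51.0 CPM in male WT and 51.9, 56.4 and 50.8 in male KO, which overlap (log2 fold change 0.10 ± 0.05 SE, adjusted p = 0.176).

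Other pairs have a paralog outside the symbol rule. Rpl22, at 369 CPM per kb in male WT and 395 in female WT, stood 4.65 and 4.63 times above Rpl22l1. Rpl22 was called in males (log2 fold change 0.15 ± 0.04 SE, adjusted p = 0.0144) and missed the threshold in females (log2 fold change 0.10 ± 0.04 SE, adjusted p = 0.0519), and Rpl22l1 was called in neither sex (log2 fold change 0.10 ± 0.05 SE, adjusted p = 0.163 in males; log2 fold change 0.06 ± 0.05 SE, adjusted p = 0.291 in females). Rpl7 stood 5.96 and 6.41 times above Rpl7l1 per kb in male and female WT. Rpl7 rose by 11.0% in males (log2 fold change 0.15 ± 0.03 SE, adjusted p = 3.65e-05) and 12.5% in females (log2 fold change 0.17 ± 0.02 SE, adjusted p = 4.87e-07). Rpl7l1, known from ribosome assembly rather than from the mature ribosome, was called in females (log2 fold change 0.14 ± 0.03 SE, adjusted p = 0.00109) and not in males (log2 fold change 0.09 ± 0.04 SE, adjusted p = 0.0797). Rpl36a and Rpl36al, which encode nearly the same protein, were close in level, with Rpl36a 1.88 and 1.91 times higher per kb in male and female WT. Rpl36a was called in females (log2 fold change 0.12 ± 0.04 SE, adjusted p = 0.0241), a call lost in 5 of 24 alternative settings, and Rpl36al in neither sex (log2 fold change 0.08 ± 0.05 SE, adjusted p = 0.288 in males; log2 fold change 0.04 ± 0.05 SE, adjusted p = 0.593 in females).

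Several ribosomal proteins have known roles outside the ribosome. Rpl5 and Rpl11 bind Mdm2 together with a ribosomal RNA when ribosome assembly is disturbed. Rpl5 measured 159, 153, 155 and 155 CPM in male WT and 168, 168 and 173 in male KO (log2 fold change 0.13 ± 0.03 SE, adjusted p = 0.00284), and 162, 162, 165 and 157 in female WT and 184, 172, 171 and 176 in female KO (log2 fold change 0.12 ± 0.03 SE, adjusted p = 0.00106). Rpl11 rose by 11.6% in males (log2 fold change 0.16 ± 0.04 SE, adjusted p = 0.00589) and 12.2% in females (log2 fold change 0.17 ± 0.04 SE, adjusted p = 9.11e-04). Neither gene had overlapping KO and WT libraries in a sex. Rps27a, which is made as a fusion with ubiquitin, was at 188, 192, 185 and 180.3 CPM in female WT and 238, 205, 207 and 201 in female KO (log2 fold change 0.19 ± 0.05 SE, adjusted p = 0.00471). In males it overlapped, because male WT replicate 1 reached the KO libraries (log2 fold change 0.12 ± 0.05 SE, adjusted p = 0.126).

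The 7 ribosomal proteins whose symbols fall outside the rule gave smaller counts: 2 were called higher in males (28.6%) and 4 in females (57.1%). All tested genes gave 10.1% and 20.7%. Of the 7, 0 were lower in either sex, and the median log2 fold changes were 0.10 and 0.11. Rack1, a scaffold on the small subunit head that is listed as Gnb2l1, was at 905, 865, 847 and 871 CPM in male WT and 949, 979 and 949 in male KO (log2 fold change 0.14 ± 0.03 SE, adjusted p = 5.01e-04). It also rose in females (log2 fold change 0.11 ± 0.03 SE, adjusted p = 7.06e-04). Rps3a1, a small subunit protein, rose by 8.84% in males (log2 fold change 0.12 ± 0.03 SE, adjusted p = 0.00639) and 15.3% in females (log2 fold change 0.21 ± 0.03 SE, adjusted p = 1.42e-06).

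Members were also grouped by properties that the symbol rule did not use, as a description. All tested genes gave 10.1% called higher in males and 20.7% in females. Of the 38 tested members with a shared percentage at or under the median, 25 were called higher in males and 29 in females. Their log2 fold changes had a median of 0.14 in both sexes. Of the 39 members above the median share, 32 were called higher in males and 35 in females (0.15 in both). Of 7 tested members with under 20% of windows shared, 5 were called higher in each sex. Among 64 tested members without an exon overlap, 46 were called higher in males and 51 in females. With the TOP motif at the annotated first base, 8 of 13 members were called higher in males and 9 in females. Of the 43 other tested members with a promoter sequence, 32 and 37 were called higher. The 4 medians of these groups lay between 0.14 and 0.15. Ribosomal protein mRNAs are short, so other genes with mRNAs under 1000 bases were set beside them. Of 1167 such genes, 123 were called higher in male KO (10.5%) and 183 in female KO (15.7%), with medians of 0.02 and -0.02.

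Genes that work with the ribosome were read from lists of the translation machinery. Of 15 elongation factors and other TOP mRNAs, 9 were called higher in males and 12 in females, with 0 lower and medians of 0.12 and 0.15. Called higher among all tested genes were 10.1% in males and 20.7% in females, and called lower were 10.1% and 18.6%. Pabpc1, the poly(A) binding protein, rose by 12.0% in males (log2 fold change 0.16 ± 0.03 SE, adjusted p = 9.01e-06) and 21.5% in females (log2 fold change 0.28 ± 0.02 SE, adjusted p = 1.10e-11). Npm1, a nucleolar chaperone, rose by 12.8% in males (log2 fold change 0.17 ± 0.03 SE, adjusted p = 7.01e-06) and 12.6% in females (log2 fold change 0.17 ± 0.02 SE, adjusted p = 8.24e-07). Of 22 tested initiation factors, 12 were called higher (54.5%) and 1 lower in males, and 19 higher (86.4%) and 1 lower in females. Their medians were 0.09 and 0.14. The gene that fell was Eif4a2, a helicase related to Eif4a1, at 237, 242, 242 and 236 CPM in male WT and 218, 215 and 214 in male KO (log2 fold change -0.15 ± 0.03 SE, adjusted p = 2.72e-04), and it fell by 16.1% in females (log2 fold change -0.25 ± 0.03 SE, adjusted p = 3.10e-09). In females the largest rises were those of Eif6, which keeps the subunits apart, by 31.7% (log2 fold change 0.40 ± 0.03 SE, adjusted p = 1.79e-12) and Eif5a, which helps ribosomes past difficult peptide bonds, by 26.6% (log2 fold change 0.34 ± 0.03 SE, adjusted p = 2.14e-12).

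Genes that guide ribosomal proteins or control their mRNAs were read in the same way. Of 12 chaperones and importers of ribosomal proteins, 3 rose in males and 6 in females, with 0 lower and medians of 0.03 and 0.13. Kpnb1, an import receptor, rose by 7.81% in males (log2 fold change 0.11 ± 0.03 SE, adjusted p = 0.00177) and 24.1% in females (log2 fold change 0.31 ± 0.02 SE, adjusted p = 7.61e-13). Ncl, a nucleolar protein, rose by 11.3% and 21.2%. Of 13 genes of mTORC1 and of TOP mRNA control, 2 were called higher and 1 lower in males, and 4 higher and 1 lower in females. Their medians were 0.01 and 0.05. The shares called higher, 15.4% and 30.8%, stand beside 10.1% and 20.7% of all tested genes and are near that background for a list of this size. Myc, which drives transcription of ribosomal protein genes, rose by 9.98% in males (log2 fold change 0.14 ± 0.03 SE, adjusted p = 9.13e-04) and 22.8% in females (log2 fold change 0.30 ± 0.03 SE, adjusted p = 1.83e-10). Mtor fell by 7.26% in males (log2 fold change -0.11 ± 0.04 SE, adjusted p = 0.0407), a call lost in 9 of 24 alternative settings. Eif4ebp1, a repressor of cap-dependent initiation, rose in females (log2 fold change 0.26 ± 0.04 SE, adjusted p = 5.99e-06), and Rheb, the activator of mTORC1, fell there (log2 fold change -0.12 ± 0.04 SE, adjusted p = 0.00872).

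**Figure D5:**
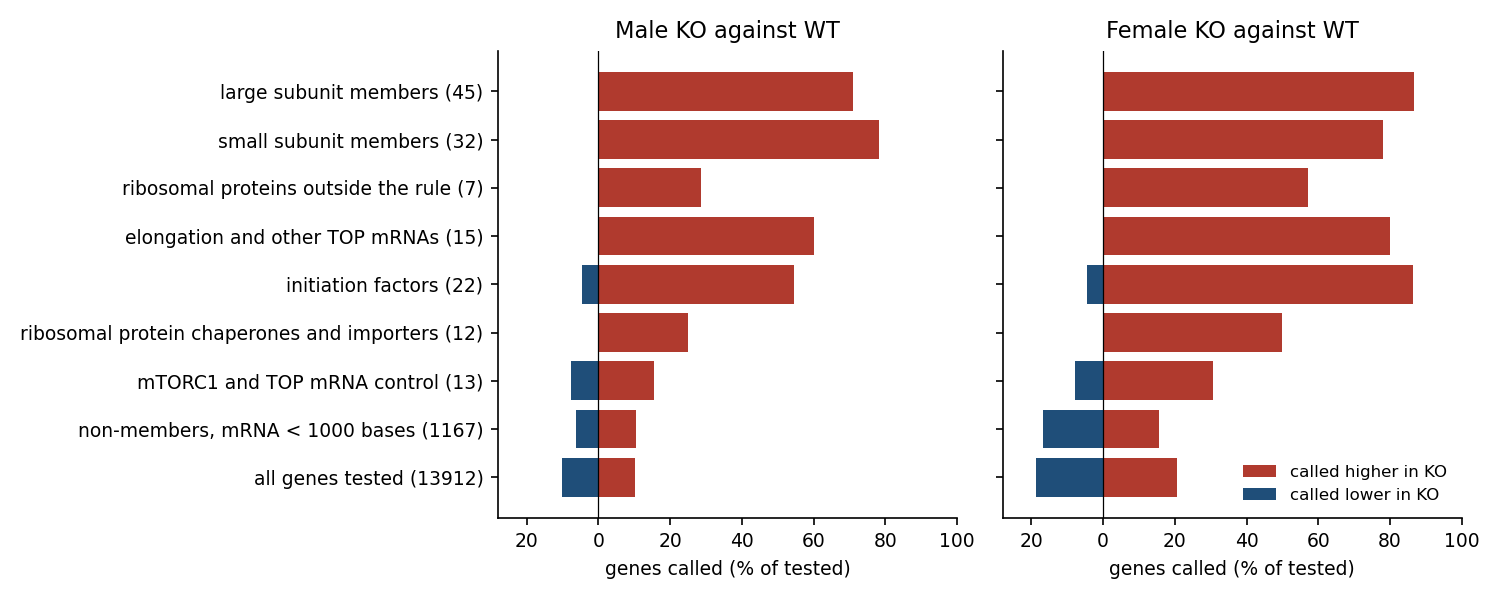
Share of tested genes called higher (red, to the right) or lower (blue, to the left) in KO against WT, in males (left) and females (right), by group, with the number tested in brackets. The large and small subunit bars reach 71.1% and 78.1% in males and 86.7% and 78.1% in females, where all tested genes give 10.1% and 20.7%.

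Levels of other gene groups were read in the same libraries. The 12 cell cycle genes of the list were all called higher in KO in both sexes, against 10.1% and 20.7% of all tested genes. Their medians were 0.35 in males and 0.77 in females. Their summed level ran from 515 to 538 CPM over the male WT libraries and 651 to 685 over male KO. Over female WT it ran from 371 to 386 CPM, and over female KO from 578 to 621, with none of the genes at 0. Between the WT groups all 12 were called lower in females (median -0.55), as were 16.0% of all tested genes. The ribosomal protein genes had a median of 0.03 there. The 12 proximal tubule markers together had 78.1 to 80.6 CPM (male WT), 61.9 to 62.9 (male KO), 90.4 to 104 (female WT) and 56.8 to 58.8 (female KO), and 6 to 8 of them were under 1 CPM in each group. Slc22a6, Slc22a8 and Slc34a1, transporters that define the tubule in the kidney, were at 0 in 1 or more groups. Of the 6 proximal tubule markers tested, 2 were called lower and 0 higher in KO of each sex. Their estimates were above 0 in 1 marker in males and 3 in females. The shares of all tested genes called lower were 10.1% in males and 18.6% in females. The 7 fibroblast markers summed to 3422 to 3656, 1783 to 1972, 3558 to 3834 and 2541 to 2769 CPM in the same order of groups, with none at 0. Of the 6 tested, 5 were called lower and 0 higher in male KO, and 4 lower and 1 higher in female KO. The 8 endothelial markers summed to 73.3 to 79.1, 32.2 to 36.3, 28.2 to 35.3 and 32.3 to 43.2 CPM, with none at 0. All 8 were called lower in male KO (10.1% of all tested genes). In female KO 2 were higher (20.7% of all tested genes) and 0 lower (18.6%). The 8 leukocyte markers summed to 20.3 to 25.0, 29.9 to 32.3, 32.2 to 37.7 and 39.5 to 51.3 CPM, with Cd3e at 0 in female KO. The 7 distal nephron markers summed to 10.3 to 12.9, 6.60 to 8.42, 18.5 to 20.4 and 4.04 to 7.25 CPM, with Aqp2 at 0 in 3 groups. The part of cell cycle activity and cell composition in the ribosomal protein rise was not tested.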

How the data were processed

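The authors deposited a table of raw read counts per gene symbol and a table of CPM values for the same libraries, each the count divided by its library's total and scaled to 1000000. Strand-specific mRNA libraries were made, per the labels' protocols. STAR 2.6.1, featureCounts, edgeR 3.26.8, limma 3.40.6 and the build mm10 are named, per the submitters' processing notes. The annotation, the strand setting and the treatment of reads with several matches are not given in the sources used here.

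The counts were tested with edgeR 4.0.16 in R 4.3.3: filterByExpr (minimum count 10, minimum total 15), TMM scaling, and the robust quasi-likelihood test over all 15 libraries and 4 groups, with Benjamini-Hochberg adjustment over 13912 genes and a threshold of 0.05. The common biological coefficient of variation, as edgeR names it, was 3.59%. Here it measures the spread between libraries of a pool and not between mice. Fold changes are given on the log2 scale as fitted, and levels are TMM-scaled CPM; shares and ratios use the counts as deposited. Between libraries of a group the correlation of log2 CPM was at least 0.994, and between groups at most 0.993. As alternatives, DESeq2 1.42.0 and limma-voom (limma 3.58.1) were run, scalings and filters were changed, the 2 groups of a comparison were fitted alone, the replicate number was added as a block, and libraries were left out in turn. Counts were also simulated for 13795 genes, with 50 genes changed at each fold and each gene drawn independently of the others. The fit for the male comparison recovered 18% of 1.1-fold, 48% of 1.2-fold, 82% of 1.5-fold and 98.0% of 2-fold changes. For the female comparison it recovered 20%, 52%, 84% and 98.0%. Genes that were not changed made up 3.94% and 5.97% of the calls. These values describe the simulated setting and not the error rate of the calls in the data.

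Positions, lengths and shared windows are from GENCODE M21, and promoter sequences from RefSeq. A gene's length is its shortest basic protein-coding transcript with a CCDS tag, or its shortest basic protein-coding transcript where none has the tag. Genes without a basic protein-coding transcript take their longest transcript. Members and gene lists were chosen with earlier results of these data known. Named genes are the 6 largest called rises and falls per KO comparison, the 6 members with the smallest p for the difference between sexes, the 5 highest and 5 lowest levels per kb, members with a paralog or a role outside the ribosome, and up to 2 called genes per list and direction. Some genes that enter the counts are not reported here by name. Proteins were not compared, since no protein sequence was used here.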

Additional observations from a re-analysis of the deposited data

Results flagged for a closer look

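In 4 genes 1 library stood apart from the others of its group by a gap that is large for a group of 4. For this, 93 groups of named genes were examined, and chance alone gives such a gap in about 1 in 20. The 4 found are no more than that rate gives, and the groups share libraries, so they are not independent. In male WT the highest library was apart for Rpl22, at 189 CPM with the next at 172, for Rpl36a, at 116 with the next at 103, and for Rps2, at 839 with the next at 768. In each of the 3 this was replicate 1. In female KO the highest library was apart for Rps27a, at 238 CPM with the next at 207, and this was replicate 1 as well.

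Among the individually examined genes outside the ribosomal proteins, the KO effect differed between the sexes in 7, by the interaction term in edgeR, where 9.76% of all tested genes were called higher and 5.89% lower. Other genes of the lists were called as well. All 8 endothelial markers were called higher, with a median difference of 1.44 (log2). So were 4 of 6 tested fibroblast markers (median of the 6, 0.45) and 7 of 12 cell cycle genes (median of the 12, 0.38). Called lower were 3 distal nephron markers and 1 proximal tubule marker. Eif5a rose by 0.14 (log2) in males and 0.34 in females, a difference of 0.20 (adjusted p = 3.94e-04). Eif6 rose by 0.15 and 0.40, a difference of 0.25 (adjusted p = 1.18e-04). Kpnb1 rose by 0.11 and 0.31, a difference of 0.20 (adjusted p = 4.79e-05). Myc rose by 0.14 and 0.30, a difference of 0.16 (adjusted p = 0.00617). Ncl rose by 0.15 and 0.28, a difference of 0.12 (adjusted p = 0.0171), and Pabpc1 by 0.16 and 0.28, also a difference of 0.12 (adjusted p = 0.0173). Plk1, a mitotic kinase of the cell cycle list, rose by 0.53 and 1.01, a difference of 0.48 (adjusted p = 2.78e-06). The calls of Ncl and Pabpc1 were each lost in 3 of 23 alternative settings.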

How the results depend on the processing

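The counts of members called higher stayed within 1.5 times of the main count in every alternative: 50 to 64 in males and 48 to 68 in females over changes of scaling, filter, test and fit, and 43 to 70 and 53 to 67 when 1 library was left out. With library size as the only scaling, 1 member was called for the difference between sexes in place of 0, and 11 between the WT groups in place of 6. Leaving out 1 library gave 0 to 2 members for the difference between sexes (Rpsa, Rplp2 or Rps4l) and 3 to 22 between the WT groups. Deviations of same-numbered libraries correlated at -0.0285 to 0.165 over 21 pairs (median 0.0301), 1 of them above 0.1. For differently numbered libraries the range was -0.113 to 0.0707 over 63 pairs (median -0.00553). Of 15 libraries, 8 correlated best with a library of their own number. The labels do not say that a replicate number marks anything shared between groups, and a shared part was not tested. With the replicate number as a block, 64 members were called higher in males and 68 in females. In that fit 3 were called for the difference between sexes (Rpsa, Rplp2 and Rpl31) and 12 between the WT groups. No call was read from it. Without Rpl4, the most abundant member, the shares were 2.03%, 2.25%, 2.09% and 2.27% in male WT, male KO, female WT and female KO. Without Rpl4 and Rps2, the large to small ratio was 1.55, 1.54, 1.54 and 1.54 in the same order. The median log2 CPM of large minus small members was 0.096, 0.050, 0.082 and 0.061 in the 4 groups. Of 97 named fold changes, 81 kept their call in all alternatives, and of 2320 recomputed values 79 lost the call and 0 changed sign; the cause was not tested. Depth limits the low genes. The simulated recovery of a 1.1-fold change was 18% in males and 20% in females, over genes drawn at random from all tested genes. It does not give the recovery for the members or for low genes, and a member that was not called may still differ. Groups of 1 pool leave the spread between mice unmeasured.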
